A study of Mus musculus with 12 samples.

Results

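The cytosolic ribosomal protein genes were followed in mouse hematopoietic stem cells cultured with nicotinamide riboside (NR), a vitamin B3 form that cells convert to NAD+. Members were chosen by symbol: Rpl or Rps with a number, the stalk genes Rplp0, Rplp1 and Rplp2, and Rpsa, leaving out symbols with the pseudogene suffix -ps, the S6 kinases and Rps19bp1. The rule found 83 of the 53465 genes counted. Of these, 76 were canonical members, 46 of the large and 30 of the small subunit, and 7 were paralogs whose symbols end in l, of which the annotation types 3 (Rpl6l, Rpl32l and Rps4l) as processed pseudogenes. Stem cells of the long-term kind (LT-HSC) and of the short-term kind (ST-HSC) were sorted from bone marrow as lineage-negative, Kit+, Sca1+, CD150+, CD48- cells that were CD34- or CD34+, and each was grown for 2 days. The 4 groups, of 3 samples each, were LT-HSCs with NR, LT-HSCs without it (control), ST-HSCs with NR and ST-HSCs without it. NR was at 1 mM and was renewed after 24 h, and all cultures held Stemline II medium with SCF at 100 ng/ml and Flt3 at 2 ng/ml. The labels give no strain, age, sex or number of mice, and do not say whether samples came from separate animals or cultures, so the p-values speak only of sample-to-sample spread, part or all of which may be technical.

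Ribosomal proteins coat the ribosomal RNAs of the large and small subunits and are needed for folding, processing and export of each subunit. Their mRNAs begin with a run of pyrimidines (a TOP motif), through which mTOR signalling and the RNA-binding protein Larp1 control their translation as a group. Hematopoietic stem cells keep a low rate of protein synthesis, and loss of a copy of some ribosomal protein genes causes anemia in humans. Free Rpl5 and Rpl11 bind the ubiquitin ligase Mdm2, which links unbalanced ribosome assembly to p53.

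Libraries held 24.6 M to 35.5 M counts assigned to genes (median 31.7 M). Levels are given as normalised CPM (counts scaled to a common library size, with TMM factors), and changes as log2 NR over control with the standard error of the fit. The third NR sample of either cell type stood apart, with 28.5% (LT-HSC) and 26.2% (ST-HSC) of reads in no annotated gene, against at most 17.0% in the other libraries. A list of 6 stem cell genes (Kit, Ly6a, Slamf1, Cd48, Cd34 and Procr) was summed. It reached 1729.8 to 2064 CPM in NR LT-HSCs and 1759 to 1845 in control LT-HSCs. In ST-HSCs the sums were 2203 to 2358 with NR and 1994 to 2099 in control. The sort took cells without CD48, divided the cell types by CD34 and did not use Procr. The sum is therefore no check of cell identity. All 76 canonical members, and 4 of the 7 paralogs, passed the filter on low counts.

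Promoter windows are shown so that the start regions of genes at both ends of the family can be compared. Among canonical members with a window and at least 5 CPM, Rpl5, Rps13 and Rpl38 were lowest relative to the family with NR and Rpl9, Rps19 and Rps27 highest, and Rps27l is a paralog of Rps27. Each runs 5′ to 3′ from 100 bases before to 30 bases after the most upstream start in the RefSeq promoter table (GRCm38.p6). Capitals mark runs of at least 8 pyrimidines between 50 bases before the start and the end of the window.
Rpl5, chr5:107900428-107900557, plus strand: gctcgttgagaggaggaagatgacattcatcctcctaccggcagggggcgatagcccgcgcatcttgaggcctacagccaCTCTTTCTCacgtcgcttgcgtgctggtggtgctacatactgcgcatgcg
Rps13, chr7:116334161-116334290, minus strand: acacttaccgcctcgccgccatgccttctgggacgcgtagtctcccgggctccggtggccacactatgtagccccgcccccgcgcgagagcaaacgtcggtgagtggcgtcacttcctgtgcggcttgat
Rpl38, chr11:114668480-114668609, plus strand: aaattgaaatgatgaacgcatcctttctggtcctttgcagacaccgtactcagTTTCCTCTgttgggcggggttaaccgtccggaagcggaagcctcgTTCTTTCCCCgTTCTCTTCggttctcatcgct
Rpl9, chr5:65391402-65391531, minus strand: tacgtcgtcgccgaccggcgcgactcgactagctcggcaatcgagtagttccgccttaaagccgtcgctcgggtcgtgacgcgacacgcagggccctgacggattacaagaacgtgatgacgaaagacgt
Rps19, chr7:24884492-24884621, plus strand: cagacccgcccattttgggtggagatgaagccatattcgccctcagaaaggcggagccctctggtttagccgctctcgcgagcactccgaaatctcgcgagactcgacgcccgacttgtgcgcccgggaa
Rps27, chr3:90213619-90213748, minus strand: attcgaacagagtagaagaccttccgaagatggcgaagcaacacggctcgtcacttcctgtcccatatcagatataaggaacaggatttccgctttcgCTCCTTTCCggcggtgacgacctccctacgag
Rps27l, chr9:66945986-66946115, plus strand: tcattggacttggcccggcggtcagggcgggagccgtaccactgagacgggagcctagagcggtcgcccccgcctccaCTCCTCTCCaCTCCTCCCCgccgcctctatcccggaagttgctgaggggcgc
Of the 76 canonical members, 56 had a window in the table. A run of at least 8 C or T on the gene's strand lay within 50 bases of the start in 45 of the 56 (80.4%), against 35.7% of the 27025 windows of all genes. The hexamer CGGAAG, searched on both strands over 300 bases, was found in 39 of 56 (69.6%), against 17.2% of all windows. Rps13 had no such run, and in Rpl9 and Rps19 the run lay past the printed end. Among the canonical members called lower relative to the family (averaged over both cell types, given later), 10 of 11 with a window held the pyrimidine run and 7 of 11 the hexamer. Among those called higher relative to the family, the counts were 9 of 9 and 5 of 9. A match describes these letters only.

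The share of gene counts that fell on canonical ribosomal protein genes was lower with NR in both cell types. It was 1.94%, 2.02% and 1.99% in NR LT-HSCs, against 2.21%, 2.35% and 2.24% in control LT-HSCs. It was 2.19%, 2.27% and 2.04% in NR ST-HSCs, against 2.38%, 2.36% and 2.32% in control ST-HSCs. Every NR sample lay below every control sample of its cell type. The group means were 1.98 ± 0.0437% with NR and 2.27 ± 0.0770% in control LT-HSCs, and 2.17 ± 0.120% with NR and 2.35 ± 0.0320% in control ST-HSCs (SD, n = 3 each). The ratio of large-subunit to small-subunit counts was 1.42 to 1.45 in NR LT-HSCs and 1.40 to 1.41 in control LT-HSCs, and 1.40 to 1.41 in NR ST-HSCs and 1.38 to 1.41 in control ST-HSCs. In these bulk samples, fewer cells of a type and less RNA per cell cannot be told apart.

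**Figure D1:**
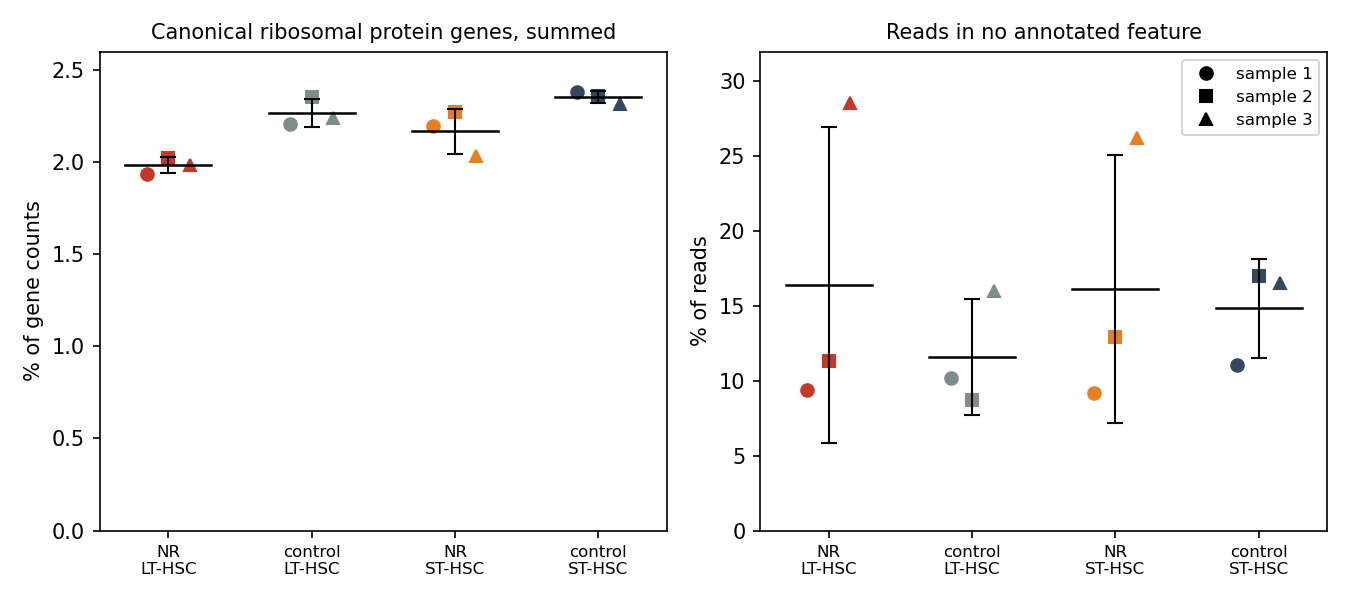
Share of gene counts on the 76 canonical ribosomal protein genes (percent, y axis) in each of the 12 libraries; points are samples, marker shapes the sample number, lines group means and bars the SD (n = 3), and the second panel gives the percent of reads in no annotated gene. NR samples lie at 1.94% to 2.02% in LT-HSCs, below the control samples at 2.21% to 2.35%, and at 2.04% to 2.27% in ST-HSCs, below 2.32% to 2.38%.

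Gene by gene, most of the family was lower with NR. In LT-HSCs, 58 of the 76 canonical members fell (edgeR quasi-likelihood test, Benjamini-Hochberg adjusted p under 0.05 over 19830 genes), where 7.58% of all genes tested fell. In ST-HSCs 42 of 76 fell, where 11.1% of all genes fell. With both cell types averaged, 68 of 76 fell, where 16.1% of all genes fell. The median log2 change of the members was -0.31 in LT-HSCs and -0.24 in ST-HSCs, and -0.27 when averaged. That of all genes tested was 0.04 in LT-HSCs and -0.03 in ST-HSCs, and 0.03 when averaged. Of the 19830 genes, 10471 had a mean of 5 CPM or more, as did every member except Rpl24. Among these 10471, 1466 fell and 440 rose in LT-HSCs, and 2091 fell and 1004 rose in ST-HSCs. With the cell types averaged, 2995 fell and 1328 rose. Their medians were -0.06 (LT-HSCs), -0.08 (ST-HSCs) and -0.07 (averaged), so the family stood out less against them than against all genes. No member rose in these comparisons by edgeR, and none had an unadjusted p under 0.05 in that direction, while DESeq2 called 1 higher in ST-HSCs and 1 averaged and limma-voom 0. Of all genes, 2.38% rose in LT-HSCs, 5.82% did in ST-HSCs, and 7.88% with both averaged.

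Of the 76 members, 39 fell in both cell types, 19 in LT-HSCs alone, 3 in ST-HSCs alone (Rpl23a, Rpl35 and Rplp0) and 15 in neither, and 73 had a log2 change below 0 in both. A call in 1 cell type and not the other is no test of a difference. All NR samples lay below all control samples for 71 of 76 members in LT-HSCs, where 15.9% of all genes did so, and for 61 of 76 in ST-HSCs, where 20.9% did so. All NR samples lay above all control samples for 0 members, against 8.47% of all genes in LT-HSCs and 11.8% in ST-HSCs. The number called depended on single libraries: in LT-HSCs it was 23 when either control sample 2 or NR sample 1 was left out, 29 when NR sample 2 was, and 34 when NR sample 3 was. In ST-HSCs it was 11 without NR sample 3 of ST-HSCs, 19 without either NR sample 1 or NR sample 2 of LT-HSCs, and 21 and 25 without control samples 1 and 2 of ST-HSCs; without both NR samples rich in reads in no gene it was 14, and the median change -0.09. Averaged, it was 49 without those 2 libraries.

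**Figure D2:**
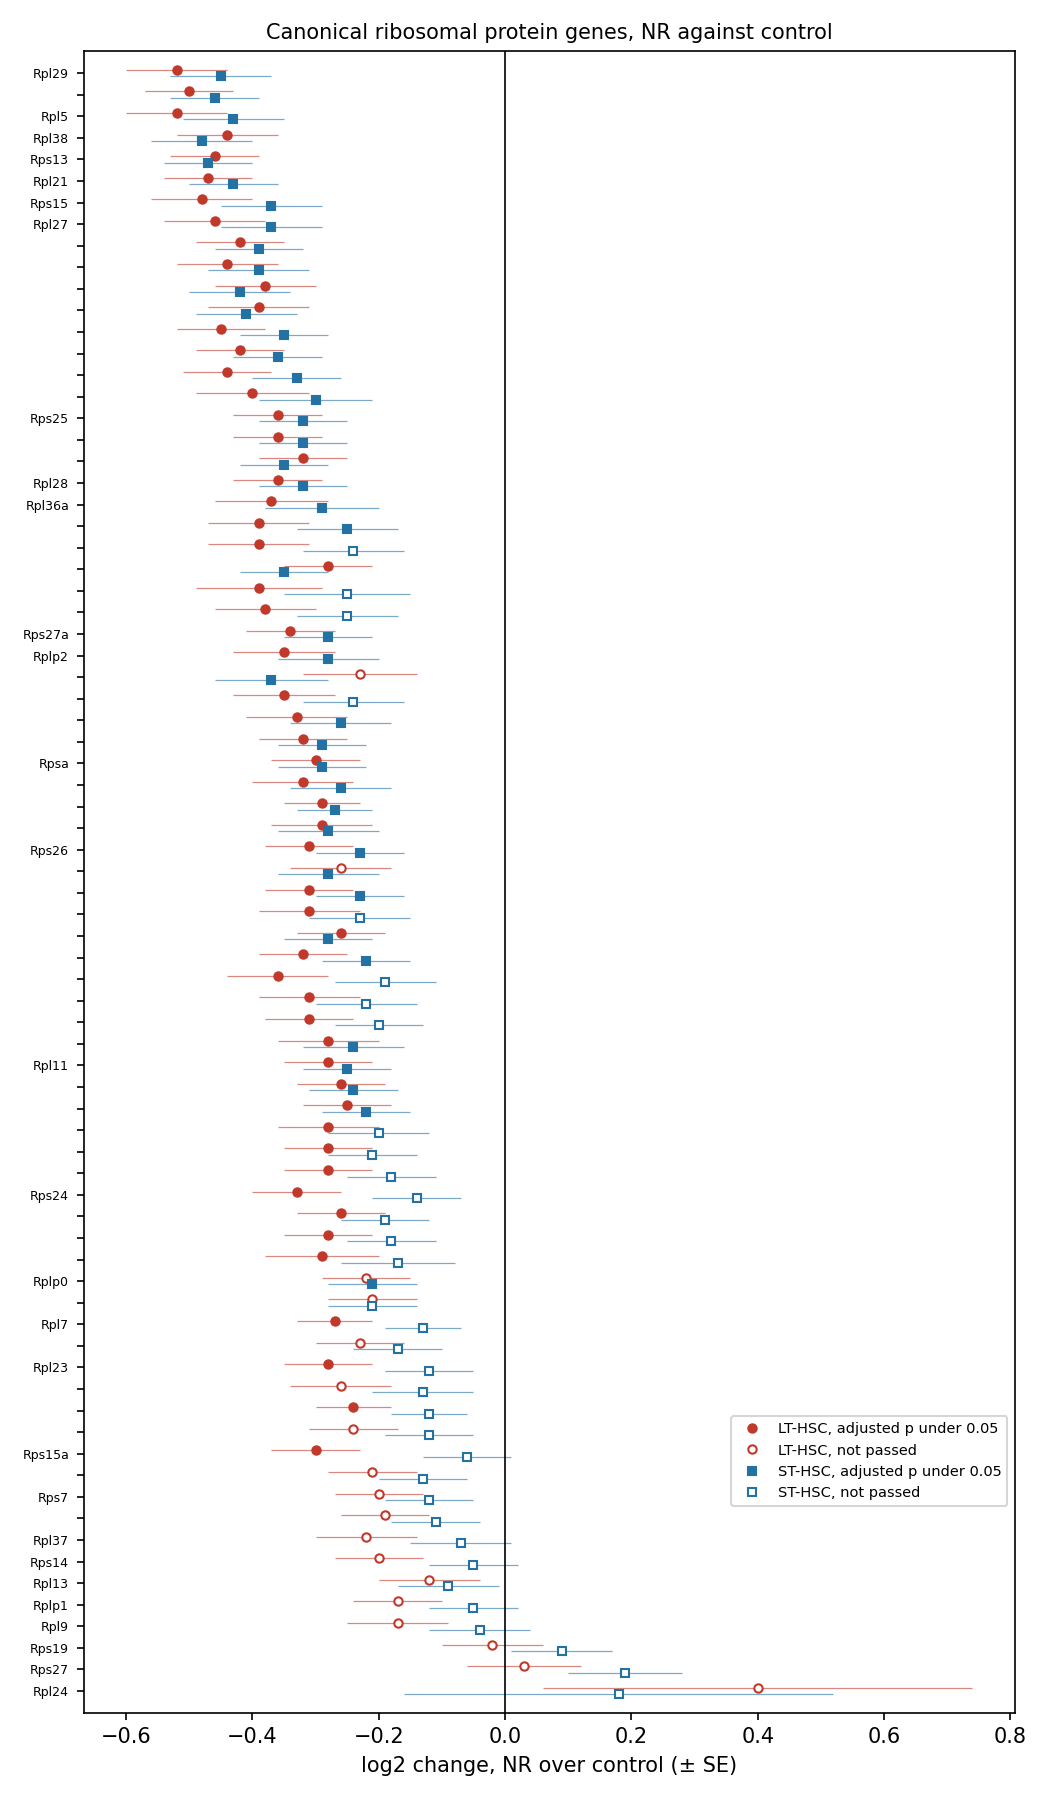
Log2 change, NR over control, of the 76 canonical members in LT-HSCs and ST-HSCs, ordered by the averaged change. Bars are the standard error, filled markers have an adjusted p under 0.05 (edgeR), and some of the genes described in the text are labelled. In LT-HSCs 74 members and in ST-HSCs 73 members lie below 0, with medians of -0.31 and -0.24.

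Lists of genes named for other lineages were summed in the same libraries. The 5 genes of the megakaryocyte list were Pf4, Itga2b, Gp1ba, Gp9 and Vwf. Their summed CPM was 1764 to 2394 in NR LT-HSCs, against 2939 to 3349 in control LT-HSCs, and 1634 to 2148 in NR ST-HSCs, against 2900.0 to 3177 in control ST-HSCs. In control LT-HSCs this was more than the sum of the 6 stem cell genes (1759 to 1845). Monocyte and macrophage genes (6) summed to 388 to 496 CPM in NR LT-HSCs and 361 to 394 in control LT-HSCs, and to 470.0 to 576 in NR ST-HSCs and 335 to 351 in control ST-HSCs. Erythroid genes (6) summed to 67.6 to 76.4 CPM in NR LT-HSCs and 92.2 to 98.0 in control LT-HSCs, and to 34.4 to 39.9 in NR ST-HSCs and 50.03 to 60.6 in control ST-HSCs. Granulocyte genes (5) summed to 19.6 to 126 CPM in NR LT-HSCs and 53.4 to 74.4 in control LT-HSCs, and to 12.6 to 95.03 in NR ST-HSCs and 32.2 to 75.4 in control ST-HSCs. Mast cell and basophil genes (4) summed to 3.57 to 13.3 CPM in NR LT-HSCs and 3.42 to 19.98 in control LT-HSCs, and to 8.23 to 12.7 in NR ST-HSCs and 11.2 to 15.5 in control ST-HSCs. Lymphoid genes (5) stayed at 3.10 CPM or less in all libraries. No list had a gene at 0 in a whole group. Which cells of a sample these counts came from was not tested, and neither was the part of these shifts in the ribosomal protein result.

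In the large subunit, 33 of 46 members fell in LT-HSCs, 23 of 46 in ST-HSCs and 41 of 46 averaged. The shares of all genes that fell were 7.58%, 11.1% and 16.1%. Rpl5, which carries 5S rRNA into the ribosome together with Rpl11 and binds Mdm2, reached 140.4, 154 and 128 normalised CPM in NR LT-HSCs, against 194, 211 and 199.6 normalised CPM in control LT-HSCs. In the other cell type it had 163, 159.5 and 139 normalised CPM in NR ST-HSCs, against 209, 213 and 202 in control ST-HSCs. No NR sample overlapped a control sample in either cell type, and the averaged log2 change was -0.47 ± 0.05 (edgeR, adjusted p = 4.17e-05). Rpl11 fell by 0.26 ± 0.05 on the averaged log2 scale (edgeR, adjusted p = 0.00175), with 152 ± 9.19 CPM in NR and 185 ± 8.14 in control LT-HSCs (SD, n = 3 each). Rpl23, which also binds Mdm2, fell in LT-HSCs (log2 -0.28 ± 0.07, edgeR adjusted p = 0.02) and did not pass in ST-HSCs (log2 -0.12 ± 0.07, adjusted p = 0.274). With the small-subunit protein Rps7 (averaged log2 -0.16 ± 0.05, edgeR adjusted p = 0.0333), all 4 Mdm2 binders fell averaged, 3 in LT-HSCs and 2 in ST-HSCs. In the whole family 68, 58 and 42 of 76 members did so. The averaged fall of Rps7 did not pass with DESeq2 (adjusted p = 0.0856), nor by edgeR without control sample 2 of LT-HSCs, any NR sample of LT-HSCs, control sample 1 or 3 of ST-HSCs, or NR sample 1 or 3 of ST-HSCs (adjusted p 0.0559 to 0.300). That of Rpl23 did not pass by edgeR without NR sample 1 or 2 of LT-HSCs or NR sample 3 of ST-HSCs (adjusted p = 0.0522, 0.0651 and 0.0887), nor in LT-HSCs without any NR sample, control sample 1 or control sample 2 of that cell type (adjusted p 0.0559 to 0.0908). Rpl11 did not pass in LT-HSCs without control sample 1 or 2 or any NR sample of that cell type (edgeR, adjusted p 0.0598 to 0.137). In ST-HSCs Rpl11 did not pass with relative log expression factors (adjusted p = 0.109), nor without any control sample or NR sample 3 of ST-HSCs, or NR sample 1 or 2 of LT-HSCs (edgeR, adjusted p 0.0593 to 0.470).

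Rpl29, also known as a heparin-binding protein, had 97.1, 98.7 and 85.9 normalised CPM in NR LT-HSCs, against 128, 144 and 131 in control LT-HSCs. In ST-HSCs the values were 100.4, 108 and 89.8 normalised CPM in NR ST-HSCs, against 139, 135 and 133 in control ST-HSCs. Both sets were apart, and its averaged log2 change of -0.48 ± 0.06 (edgeR, adjusted p = 4.55e-05) was among the lowest of the family. Rpl38, which in mouse embryos is needed for translation of a subset of Hox mRNAs, had 102, 108 and 99.5 normalised CPM in NR LT-HSCs, against 133, 147 and 139 in control LT-HSCs. In the other cell type it had 119.7, 115 and 95.9 normalised CPM in NR ST-HSCs, against 149, 157 and 156 in control ST-HSCs. Again no samples overlapped, and the averaged log2 change was -0.46 ± 0.06 (edgeR, adjusted p = 7.77e-05). The large-subunit proteins Rpl21, Rpl28, Rpl36a and Rpl7 changed by -0.45 ± 0.05, -0.34 ± 0.05, -0.33 ± 0.06 and -0.20 ± 0.04 (edgeR, adjusted p = 4.16e-05, 0.000459, 0.00132 and 0.0049), of which Rpl7 did not pass without NR sample 3 of ST-HSCs (adjusted p = 0.0808).

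The 5 large-subunit members that did not pass averaged were Rpl9, Rpl13, Rpl24, Rpl37 and the stalk gene Rplp1. Rpl13 had 679, 732 and 619 normalised CPM in NR LT-HSCs, against 699, 783 and 734 in control LT-HSCs, and these sets overlapped. Its averaged log2 change was -0.11 ± 0.06, that of Rpl9 -0.10 ± 0.05 and that of Rpl37 -0.14 ± 0.06 (edgeR, adjusted p = 0.229, 0.24 and 0.0815). Rpl24, whose mutation in mice gives a belly spot and tail phenotype, was counted at only 1.18, 1.51 and 0.921 CPM in NR LT-HSCs and 0.823, 1.10 and 0.819 in control LT-HSCs, with an averaged log2 change of 0.29 ± 0.24 (edgeR, adjusted p = 0.496). Another annotated gene, Gm28037, overlaps 47.0% of its exonic bases and is listed at 0 in all libraries, so that its level is uncertain. Rpl35 (66.2% of exonic bases overlapped), Rpl23a (62.3%), Rpl13a (35.4%) and Rpl5 (26.7%) are among the members that share exons with other genes too. The counts do not say how such reads were divided, and whether counting used strand is not given in the sources used here.

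Of the acidic stalk, which recruits elongation factors, 1 of 3 genes, Rplp2, fell in LT-HSCs, where 7.58% of all genes fell. In ST-HSCs 2 of 3, Rplp0 and Rplp2, fell, where 11.1% of all genes did. These calls depended on single libraries. That of Rplp0 in ST-HSCs was lost with DESeq2 (adjusted p = 0.0707), with relative log expression factors (0.162), and by edgeR without any 1 of control samples 1 and 3 or NR samples 1 and 2 of LT-HSCs, any control sample of ST-HSCs, or NR sample 1 or 3 of ST-HSCs (adjusted p 0.0582 to 0.587). That of Rplp2 in ST-HSCs was lost without NR sample 1 or 2 of LT-HSCs, any control sample of ST-HSCs or NR sample 3 of ST-HSCs (edgeR, adjusted p 0.0766 to 0.382), and that in LT-HSCs without control sample 2 or any NR sample of that cell type (edgeR, adjusted p 0.0545 to 0.0735). The stalk base Rplp0 had 949.9, 978 and 836 normalised CPM in NR ST-HSCs, against 1112, 1052 and 1039 in control ST-HSCs, with no overlap, and fell by 0.22 ± 0.05 on the averaged log2 scale (edgeR, adjusted p = 0.00422). Rplp2 fell by 0.31 ± 0.06 (edgeR, adjusted p = 0.0013). Its partner Rplp1 had 317, 321 and 273 normalised CPM in NR ST-HSCs, against 318, 318 and 308 in control ST-HSCs, and those sets overlapped. The averaged change of Rplp1 was -0.11 ± 0.05 and did not pass (edgeR, adjusted p = 0.147), leaving 2 of 3 stalk genes called averaged. Without NR sample 3 of ST-HSCs, Rplp0 did not pass either (edgeR, adjusted p = 0.0538).

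In the small subunit, 25 of 30 members fell in LT-HSCs, 19 of 30 in ST-HSCs and 27 of 30 averaged. The shares of all genes that fell there were 7.58%, 11.1% and 16.1%. Rps13 had 166, 177 and 164 normalised CPM in NR LT-HSCs, against 222, 252 and 226 in control LT-HSCs. In ST-HSCs Rps13 had 187, 188 and 167 normalised CPM in NR ST-HSCs, against 254, 255 and 241 in control ST-HSCs. No NR sample reached a control sample, and the averaged log2 change was -0.46 ± 0.05 (edgeR, adjusted p = 1.92e-05).

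Members known for other roles were followed by name. Rpsa, also called the laminin receptor and mutated in human isolated congenital asplenia, had 403, 426 and 383 normalised CPM in NR LT-HSCs, against 487, 524 and 477 in control LT-HSCs, with no overlap. Rps25, needed for translation from some viral internal ribosome entry sites, had 233, 251 and 207 normalised CPM in NR ST-HSCs, against 279, 294 and 289 in control ST-HSCs, again without overlap. Rps27a is made as a fusion to ubiquitin. The averaged log2 changes were -0.29 ± 0.05 for Rpsa, -0.34 ± 0.05 for Rps25 and -0.31 ± 0.05 for Rps27a (edgeR, adjusted p = 0.000892, 0.000302 and 0.000469).

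For 19 of the members, the human counterparts are mutated in Diamond-Blackfan anemia, a failure of red cell production. Of these, 15 passed as lower in LT-HSCs, 9 in ST-HSCs and 17 when averaged, with an averaged median log2 change of -0.26. The whole family was much the same, with 58, 42 and 68 of 76 lower and an averaged median of -0.27. Of all genes tested, 7.58%, 11.1% and 16.1% were lower. Rps19, the gene mutated most often in that disease, was not among the members that fell. It had 494, 551 and 457 normalised CPM in NR LT-HSCs, against 493, 547 and 481 in control LT-HSCs. In the other cell type it had 592, 616 and 519 normalised CPM in NR ST-HSCs, against 544, 550.3 and 531 in control ST-HSCs. The sets overlapped in both cell types, and the averaged log2 change was 0.04 ± 0.06 (edgeR, adjusted p = 0.734). It passed as a rise with a filter at a mean of 5 CPM (log2 0.11, adjusted p = 0.0299) and without the 2 libraries rich in reads in no gene (log2 0.14, adjusted p = 0.0442). Rps27, the other exception, had 199, 214 and 204 normalised CPM in NR LT-HSCs, against 196, 211 and 197 in control LT-HSCs. In the other cell type it had 274, 279 and 213 normalised CPM in NR ST-HSCs, against 219, 235 and 219 in control ST-HSCs. These sets overlapped as well, and the averaged log2 change of 0.11 ± 0.06 did not pass (edgeR, adjusted p = 0.267); it passed as a rise with DESeq2 (log2 0.17, adjusted p = 0.0161), and with edgeR without NR sample 3 of ST-HSCs (0.21, adjusted p = 0.00355). Rps24 and Rps26, also on that list, changed by -0.23 ± 0.05 and -0.27 ± 0.05 (edgeR, adjusted p = 0.00248 and 0.00114). Rps14, lost in a human myelodysplastic syndrome with a chromosome deletion, had an averaged change of -0.12 ± 0.05 that did not pass (edgeR, adjusted p = 0.0952) and passed with the sample number as a block.

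**Figure D3:**
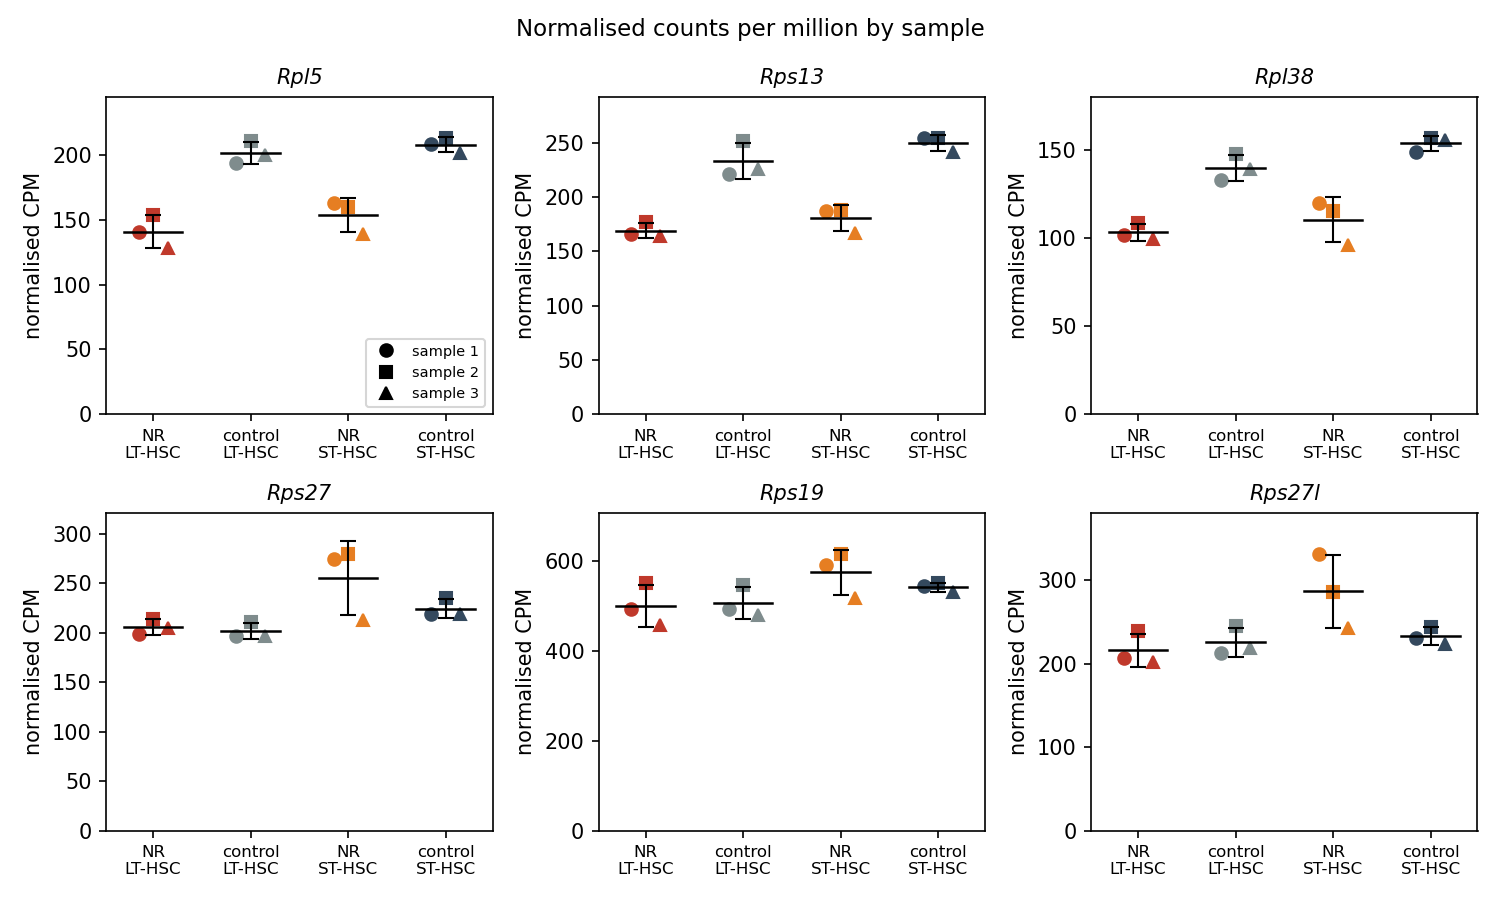
Normalised CPM (y axis, from 0) of Rpl5, Rps13, Rpl38, Rps27, Rps19 and the paralog Rps27l in each sample of the 4 groups; lines are group means, bars the SD (n = 3) and marker shapes the sample number. NR samples of Rpl5, Rps13 and Rpl38 lie below all control samples of their cell type, while those of Rps27, Rps19 and Rps27l overlap them.

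Members were also compared with the family itself, by the same edgeR fit with each library scaled to its summed canonical counts. This scaling holds the summed family constant, so that members on either side of 0 are built in. The shares of all genes on this scale are shifted upward by the family's own fall, and are no background for the members. In LT-HSCs 11 members fell and 5 rose relative to the family, where 1.50% of all genes were lower and 20.5% higher on this scale. In ST-HSCs 15 were lower and 8 higher, against 3.59% and 17.1% of all genes. Averaged, 17 were lower and 12 higher, against 4.15% and 28.5% of all genes. The same 9 genes were lower in both cell types, among them Rpl5, Rpl21, Rpl27, Rpl29, Rps13 and Rps15, and the same 5 were higher (Rpl9, Rpl13, Rplp1, Rps19 and Rps27). Rps27 stood at 0.36 ± 0.04 and Rps19 at 0.29 ± 0.03 relative to the family on the averaged log2 scale (edgeR, adjusted p = 3.61e-05 and 7.45e-06). Rpl29 stood at -0.23 ± 0.03 and Rpl5 at -0.22 ± 0.03 (edgeR, adjusted p = 0.000187 and 0.000276). Without NR sample 3 of ST-HSCs, 15 members rather than 23 departed from the family in ST-HSCs.

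**Figure D4:**
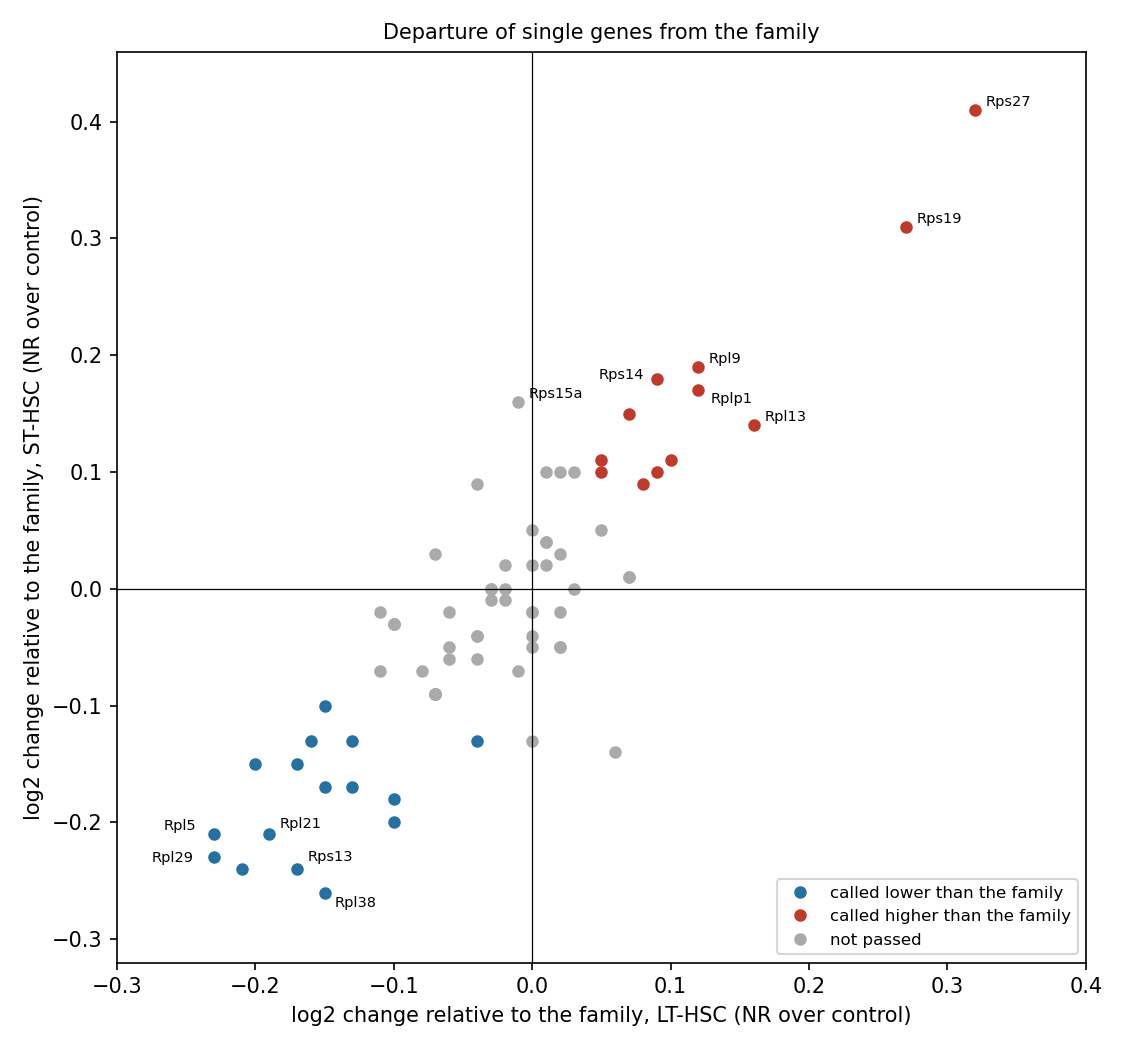
Log2 change relative to the summed family, NR over control, in LT-HSCs (x axis) and ST-HSCs (y axis), for canonical members at 5 CPM or more; colour marks the call averaged over both cell types. Rps27 (0.32 and 0.41) and Rps19 (0.27 and 0.31) lie at the upper right, and Rpl5, Rpl29 and Rps13 at the lower left.

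Of the 7 paralogs, 4 were tested. By edgeR none passed with NR in either cell type or averaged, and 1, Rps27l in ST-HSCs, had an unadjusted p under 0.05. Rps27l, which in human cells is induced by p53, had 207, 239 and 202 normalised CPM in NR LT-HSCs, against 213, 246 and 218 in control LT-HSCs. Its ST-HSC values were 331, 286 and 243 normalised CPM in NR ST-HSCs, against 231, 244 and 223 in control ST-HSCs. The sets overlapped in LT-HSCs, whereas in ST-HSCs 2 of the 3 NR samples lay above every control sample and the third just below the highest of them. The log2 change was -0.06 ± 0.10 in LT-HSCs and 0.30 ± 0.10 in ST-HSCs, neither past the threshold (edgeR, adjusted p = 0.79 and 0.0635). In ST-HSCs it passed with upper-quartile, relative log expression and DESeq2 scaling, with adjusted p of 0.00881, 0.0195 and 0.00125, and with edgeR without NR sample 3 of ST-HSCs (log2 0.48, adjusted p = 0.00613). Its own averaged log2 change was 0.12 ± 0.07 and did not pass (edgeR, adjusted p = 0.303), while DESeq2 called it (0.18, adjusted p = 0.0305). Relative to the family, which itself fell, Rps27l was higher by 0.37 ± 0.05 averaged (edgeR, adjusted p = 0.000157). On that scale 28.5% of all genes were called higher, so this value does not show a rise of Rps27l itself. Rps4l, at 43.0 ± 4.40 CPM with NR and 44.1 ± 2.23 in control LT-HSCs (SD, n = 3 each), had an averaged log2 change of 0.02 ± 0.08 (edgeR, adjusted p = 0.879). Rpl39l and Rpl32l were tested at under 1 CPM in all libraries (averaged log2 0.63 ± 0.53 and -0.23 ± 0.42, edgeR adjusted p = 0.496 and 0.772). Rpl10l, a retrogene known from testis, Rpl3l, known from muscle, and Rpl6l were not tested, with at most 0.398 CPM in any library.

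The effect of NR itself was tested for a difference between cell types. The effect in LT-HSCs minus that in ST-HSCs was below 0 for 66 of 76 canonical members. Their median was -0.07 on the log2 scale, against 0.05 over all genes tested. No canonical member passed in this interaction, by edgeR, DESeq2 or limma-voom, where 0.0101% of all genes were lower and 0.00% higher, and 1 of them had an unadjusted p under 0.05. That was Rps15a, with 147, 142 and 132 normalised CPM in NR LT-HSCs, against 171, 176 and 171 in control LT-HSCs, and 183, 194 and 164 normalised CPM in NR ST-HSCs, against 195, 186 and 184 in control ST-HSCs. Its NR and control samples were apart in LT-HSCs and overlapped in ST-HSCs, and the effect in LT-HSCs minus that in ST-HSCs was -0.24 ± 0.09 on the log2 scale (edgeR, adjusted p = 0.717). The paralog Rps27l also had an unadjusted p under 0.05, with a difference of -0.36 ± 0.14 (edgeR, adjusted p = 0.723). Rps24, Rpl7 and Rpl23 followed among canonical members with -0.19 ± 0.09, -0.14 ± 0.09 and -0.15 ± 0.10 (edgeR, adjusted p = 0.869, 0.99982 and 0.99982).

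LT-HSCs and ST-HSCs were also compared directly. With NR, 1 of 76 canonical members (Rps15a) was lower in LT-HSCs, where 2.27% of all genes were, and none was higher, where 3.80% were. The log2 change, LT-HSC over ST-HSC, was below 0 for 75 of 76. Their median was -0.15, against 0.02 over all genes tested and -0.01 over genes at 5 CPM or more. The family as a whole was not tested. No canonical member had an unadjusted p under 0.05 in the higher direction, and DESeq2 and limma-voom called 0 higher. Rps15a stood at -0.36 ± 0.07 (edgeR, adjusted p = 0.00468), and the paralog Rps27l at -0.41 ± 0.10 (edgeR, adjusted p = 0.0311). The call of Rps27l was lost without any single NR sample of either cell type except the third of ST-HSCs (edgeR, adjusted p 0.0600 to 0.137). At an unadjusted p under 0.05, 34 members were lower, and the number called was 28 by DESeq2, 7 by limma-voom, 31 without NR sample 3 of ST-HSCs and 2 without control sample 2 of LT-HSCs. The shares of all genes at that cut and in those runs were not counted, so these numbers have no background. The paralog Rps4l went the other way, at 0.27 ± 0.11 with NR and 0.39 ± 0.11 in control culture, neither past the threshold (edgeR, adjusted p = 0.208 and 0.0646). In control culture no canonical member passed by edgeR or DESeq2, where 1.50% of all genes were lower in LT-HSCs and 3.51% higher; limma-voom called 1 lower, and 1 had an unadjusted p under 0.05. The canonical members ranged there from -0.36 ± 0.34 (Rpl24), -0.17 ± 0.07 (Rps26), -0.16 ± 0.07 (Rpl28) and -0.15 ± 0.09 (Rps27) to -0.01 ± 0.09 (Rpl36a), -0.01 ± 0.08 (Rpl29), 0.02 ± 0.07 (Rpl21) and 0.03 ± 0.07 (Rplp1), as log2 LT-HSC over ST-HSC. In control culture 74 of 76 were below 0, with a median of -0.08, against -0.05 over all genes tested.

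Ribosomal proteins that carry other symbols were followed as well, and 6 of 10 fell averaged, where 16.1% of all genes fell. The list median log2 change was -0.34, against 0.03 over all genes tested. Rack1, a scaffold on the small subunit, fell by 0.39 ± 0.05 on the log2 scale (edgeR, adjusted p = 9.31e-05), Rpl22l1 by 0.42 ± 0.06 and Rpl7l1 by 0.22 ± 0.04 (adjusted p = 0.000255 and 0.00101). Rps3a1 and Rpl36al fell too (log2 -0.24 and -0.39; edgeR adjusted p = 0.00374 and 0.0142). Fau was at -0.12 ± 0.05, short of the threshold (edgeR, adjusted p = 0.0977), and Rps27rt, Rps3a2 and Rps3a3 were at or below 1 CPM on average in every group.

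Of 30 other genes with TOP mRNAs, 16 fell and 5 rose averaged (median log2 change -0.15), where 16.1% of all genes fell and 7.88% rose. In LT-HSCs 13 of them fell, where 7.58% of all genes fell. In ST-HSCs 13 fell and 5 rose, where 11.1% of all genes fell and 5.82% rose. Npm1, a nucleolar protein, had the smallest p (log2 -0.55 ± 0.04, edgeR adjusted p = 3.32e-06), followed by the RNA-binding proteins Hnrnpa1 (-0.45 ± 0.05, adjusted p = 5.82e-05) and Ybx1 (-0.45 ± 0.06, adjusted p = 6.42e-05). The genes that rose in ST-HSCs were Gas5, Snhg5, Snhg12 and Zfas1, which host small nucleolar RNAs, and Vim. Gas5 reached 511, 464 and 386 normalised CPM in NR ST-HSCs, against 329, 336 and 323 in control ST-HSCs. Zfas1 reached 60.1, 60.4 and 45.4 normalised CPM in NR ST-HSCs, against 32.7, 30.6 and 30.4 in control ST-HSCs, and for neither gene did the sets overlap.

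Of 32 chaperones and assembly factors for ribosomes, 23 fell averaged (median log2 change -0.31), where 16.1% of all genes fell. In LT-HSCs 18 fell and in ST-HSCs 17, where 7.58% and 11.1% of all genes did. Rrp12, needed for export of both subunits, fell by 0.62 ± 0.06 on the log2 scale, Rpf2, which brings 5S rRNA with Rpl5 and Rpl11 into the precursor, by 0.51 ± 0.05, and Gnl3 (nucleostemin) by 0.34 ± 0.03 (edgeR, adjusted p = 8.32e-06, 8.35e-06 and 1.82e-05). Of 18 regulators, 7 fell and 2, Mdm2 and Yy1, rose averaged (median log2 change -0.15), where 16.1% of all genes fell and 7.88% rose. Among the 10471 genes at a mean of 5 CPM or more, 2995 fell and 1328 rose. The translation repressor Eif4ebp1 fell by 0.56 ± 0.06 and Myc, which drives ribosome genes, by 0.33 ± 0.05, while Mdm2 rose by 0.41 ± 0.05 (edgeR, adjusted p = 3.43e-05, 0.000518 and 0.000124). In ST-HSCs Mdm2 had 146, 166 and 149 normalised CPM in NR ST-HSCs, against 96.8, 114 and 100.1 in control ST-HSCs, with no overlap.

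Per kilobase of exonic bases, taken over all annotated transcripts of a gene, the canonical members ranged widely. Over all 12 libraries Rpl32 averaged 647 CPM per kb, Rplp1 614, Rpl4 587 and Rplp0 585, and the median member 127. The lowest were Rpl24 at 1.12, Rpl13a at 7.74 and Rpl30 at 25.2, and all 3 share exonic bases with other annotated genes (24.8% for Rpl30). Many other members share such bases too, and the value per kb did not follow sharing throughout. Rps15a at 27.2 and Rpl35a at 28.4 share none, while Rpl23a (62.3% shared) was at 29.6 and Rpl35 (66.2%) at 93.1. These values also depend on the annotated length, which was 6270 bases for Rps15a, 3526 for Rpl35a and 847 for Rpl23a. Before division by length, the means of these genes were 170, 100.1 and 25.0 CPM. A low value per kb is therefore not always a low count. The median coefficient of variation of the members between the 3 samples of a group was 6.02% in NR LT-HSCs, 5.05% in control LT-HSCs, 9.04% in NR ST-HSCs and 2.65% in control ST-HSCs.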

How the data were processed

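RNA was measured in 12 libraries, 3 per group. Per the labels' protocols, libraries were made from 2.5 ng RNA with SMART-seq v4 amplification and Nextera XT. The authors deposited whole-number counts for each Ensembl gene. FastQC 0.11.2, STAR 2.5.0b and HTSeq 0.6.1 are named in the submitters' processing notes. For build, annotation and strand setting, nothing was given in the sources used. Rows for unassigned reads (no feature: 8.69% to 28.5% of reads) were left out of library sizes and tests, and HTSeq's counter of reads aligned to several places is listed at 0. Of the table's columns, 0 were not used. Symbols came from GENCODE M21 for 53274 of 53465 genes, and promoter windows from RefSeq (GRCm38.p6).

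Counts were tested with edgeR 4.0.16 (two-sided quasi-likelihood test, R 4.3.3) with TMM factors and 4 group means over all 12 samples, on the 19830 genes that filterByExpr kept at a minimum count of 10 and a minimum total of 15. The fit had 8 residual degrees of freedom and a biological coefficient of variation of 0.402. Benjamini-Hochberg adjusted p under 0.05 over all genes tested was a call. Relative to the family means library sizes set to the summed canonical counts. The steps were tested on simulated data. Alternatives used DESeq2 1.42.0 and limma-voom (limma 3.58.1). No pair of samples in a group was a duplicate (chi-square per degree of freedom 6.30 to 37.2).

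Named genes were all paralogs, the 6 largest and 6 smallest averaged NR changes, the extremes of the LT-HSC against ST-HSC comparisons, up to 8 genes that departed from the family, genes chosen by role, and each list's 3 smallest p; some of these genes are not reported here. Rpl37, Gas5, Zfas1, Yy1 and the lists' other named genes were chosen after their values were seen. Members and lists were chosen with earlier results of these data known.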

Additional observations from a re-analysis of the deposited data

Results flagged for a closer look

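Rows for ribosomal protein pseudogenes with the suffix -ps in their symbol, which take no part in the comparisons, held counts equal to 0.603% of the canonical member counts in NR sample 3 of LT-HSCs and 0.544% in NR sample 3 of ST-HSCs, above the highest control sample at 0.457%. These are also the 2 libraries with the most reads in no annotated gene (28.5% and 26.2%). Such rows exist for 59 members, and for 0 of them did these sum to more than 5% of the member's own counts. Pseudogenes under other symbols are not in these sums. The counts also do not show how many reads aligned both to a member and to a copy of it.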

How the results depend on the processing

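In the comparisons followed for named genes, no gene that passed changed direction in an alternative run. None that had not passed was called in the opposite direction. Changes of sign that passed in neither run were not counted, and the counts of members were not checked for reversal. Of the values for single named genes, 1331 kept their side of the threshold, 151 lost it and 23 gained it. The number of members lower with NR in LT-HSCs, 58, was 27 without a filter on low counts; the 42 in ST-HSCs were 25 with relative log expression factors, 15 without the filter and 14 without the 2 libraries rich in reads in no gene. Members higher in ST-HSCs, and likewise averaged, numbered 1 with upper-quartile factors, 1 with DESeq2, 2 with a filter at a mean of 5 CPM and 2 without those 2 libraries. Members lower in LT-HSCs than in ST-HSCs with NR, 1, numbered 10 under relative log expression scaling, 26 under upper-quartile scaling, 28 with DESeq2, 7 with limma-voom, 29 with the filter at 5 CPM, 16 with the share of reads in no gene as a covariate and 12 without those 2 libraries; in control culture limma-voom called 1. In ST-HSCs relative to the family, 15 were called without those 2 libraries. The share of all genes called was counted only for the main fits, and the cause of these changes was not tested.

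With 1 sample left out, members lower numbered 23 to 62 in LT-HSCs, 11 to 49 in ST-HSCs and 54 to 68 averaged; members higher numbered 0 in LT-HSCs, 0 to 1 in ST-HSCs and 0 to 1 averaged. LT-HSCs against ST-HSCs with NR gave 1 to 31 lower and 0 higher, and in control culture 0; the difference of effects gave 0. Relative to the family, 11 to 18 were called in LT-HSCs, 15 to 24 in ST-HSCs and 23 to 30 averaged.

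The median change over these alternatives ran from -0.32 to -0.24 in LT-HSCs, -0.29 to -0.09 in ST-HSCs and -0.30 to -0.18 averaged. Same-numbered samples were not paired by the labels, and 13 of 18 pairs had deviations correlated over 0.1 (0.032 to 0.587; other pairs -0.554 to 0.247). With the sample number as a replicate block, 69, 54 and 70 members were lower with NR in LT-HSCs, in ST-HSCs and over both, and 12 were lower in LT-HSCs than in ST-HSCs with NR.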
